A study of Mus musculus with 18 samples.

Results

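TGF-beta and BMP signalling genes of vascular endothelial cells (ECs), which form the inner lining of vessels, were followed in 18 bulk RNA sequencing (RNA-seq) libraries of sorted mouse ECs. The members were fixed by name as Tgfb1, Tgfbr2, Eng, Acvrl1, Bmpr2, Smad6, Smad7, Id1, Id3 and Bmp4, and all 10 were found among the 16248 genes of the deposited table. Wild-type FVB females gave the ECs of the mammary fat pad (normal). A second set of ECs came from MMTV-PyMT females on the FVB background, whose tumours arise spontaneously because the MMTV promoter drives a viral oncogene in mammary epithelium. The third set came from implanted tumours, for which cells of MMTV-PyMT nodules were cultured, mixed with Matrigel and injected into the mammary fat pad of FVB females. All were taken 3 h after an injection of PBS or of cGAMP, an agonist of STING, which mediates the response to cytosolic DNA. The 6 groups held 3 libraries each. The columns of the normal fat pad give treatment and number but no tissue, and were taken as normal because the other 12 name a tumour. The mice came from independent experiments, and which library belongs to which mouse and experiment was not stated.

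Ligands of the TGF-beta and BMP families bind pairs of type I and type II receptor kinases, which phosphorylate SMAD proteins that carry the signal to the nucleus. ECs have a branch of their own in the type I receptor ALK1 (gene Acvrl1) and the co-receptor endoglin (gene Eng), which respond to BMP ligands of the blood, while TGF-beta itself is bound by the type II receptor TGFBR2. Inherited loss of ALK1 or endoglin causes hereditary haemorrhagic telangiectasia, a disease of malformed vessels, and loss of BMPR2 causes pulmonary arterial hypertension. The Id genes are immediate targets of the BMP branch, and SMAD6 and SMAD7 are targets that act back on the pathway as inhibitors.

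Values are FPKM, fragments per kilobase of gene length and per depth of the library, which allow levels of different genes to be compared per length. Each library held 9093557 to 12071860 reads, as worked back from its FPKM, and the members had from 38 reads (Bmp4 in a MMTV-PyMT PBS library) to 11560 reads (Eng). All 10 endothelial markers checked were listed, with a Pecam1 (CD31) mean of 156 FPKM or more in every group. Their summed level was 1257 to 1420 FPKM in normal PBS and 1179 to 1512 FPKM in implanted PBS, but 818 to 1006 FPKM in MMTV-PyMT PBS. Summed levels of 6 epithelial markers ran the other way, with 838 to 905 FPKM in MMTV-PyMT PBS against 313 to 395 FPKM in normal PBS and 345 to 494 FPKM in implanted PBS. Summed mural cell markers (8 of 8 listed) reached 979 to 1104 FPKM in normal PBS and 252 to 344 FPKM in the PBS libraries of both tumours. Fibroblast markers (6 of 6 listed) summed to 75.3 to 87.7 FPKM in normal PBS, 112 to 178 FPKM in MMTV-PyMT PBS and 234 to 271 FPKM in implanted PBS, and 3 of 4 lymphatic endothelial markers to 42.1 to 48.9, 17.7 to 26.9 and 47.4 to 64.3 FPKM. The markers within these lists did not move together. From normal to implanted PBS, mean Col1a1 (33.8 to 186 FPKM) and Col1a2 (21.5 to 53.9 FPKM) rose. Dcn (11.2 to 2.25 FPKM), Lum (6.28 to 2.21 FPKM) and Dpt (8.09 to 1.24 FPKM) fell, and Pdgfra hardly moved (2.335 to 2.41 FPKM). Flt4 rose (18.5 to 44.4 FPKM), while Prox1 (5.71 to 2.96 FPKM) and Lyve1 (20.4 to 7.83 FPKM) fell. Of the mural markers, mean Rgs5, Acta2, Pdgfrb, Cspg4, Notch3 and Des fell. Mean Abcc9 (40.2 to 61.05 FPKM) and Kcnj8 (12.65 to 14.4 FPKM) rose. Of the epithelial markers, mean Epcam, Krt8 and Cdh1 rose. Mean Krt14 (23.1 to 14.7 FPKM) and Krt5 (33.2 to 9.04 FPKM) fell, and Krt18 hardly moved (130.6 to 130.3 FPKM). Leukocyte markers (6 of 8 listed) summed to 16.9 to 64.0 FPKM under PBS and reached 212 FPKM in implanted cGAMP 2, and 0 of 4 adipocyte markers were listed. In bulk samples, fewer cells of a type and less RNA per cell cannot be told apart. For that reason each comparison was also made after scaling each library by the geometric mean of the 10 endothelial markers, an alternative chosen after seeing the data, and its values stand beside the results that it changes. The 10 markers did not move together. In MMTV-PyMT PBS mean Cdh5 was 291 FPKM, as in normal PBS, and the means of the others were lower. Vwf went from 137.5 to 29.04 FPKM and Tek from 88.3 to 33.55 FPKM. Mean Cdh5, Kdr, Tie1, Emcn and Esam were higher in implanted than in normal PBS. Mean Pecam1, Tek, Erg, Cldn5 and Vwf were lower there. The scaling thus also carries changes of single markers and does not measure endothelial content alone.

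**Figure D1:**
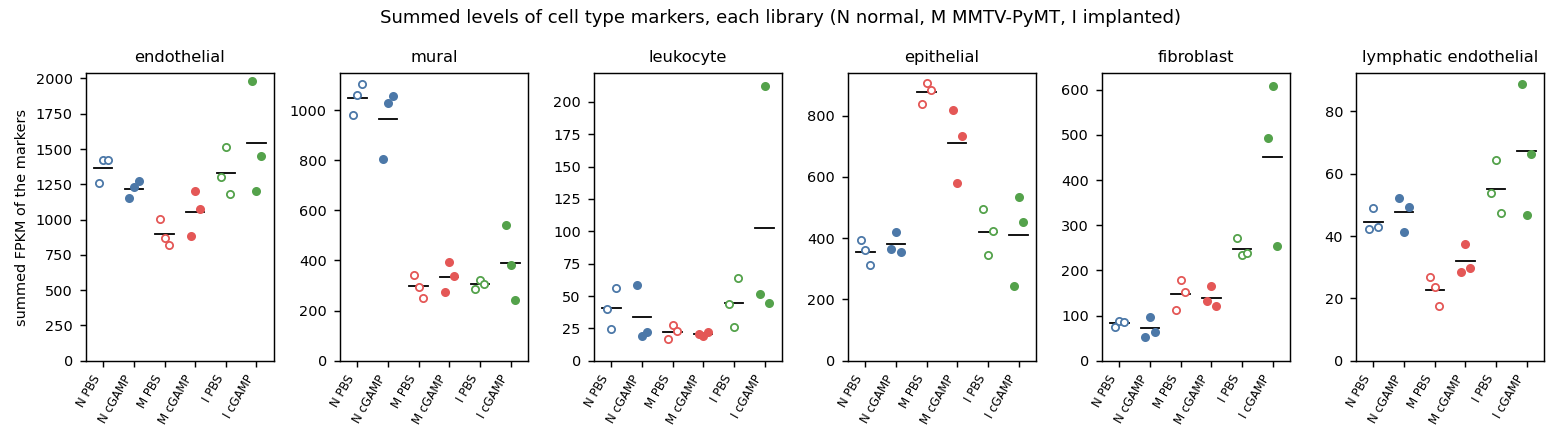
Summed FPKM of the listed markers of each cell type (y axis) in each library, by group (x axis); open points are PBS, filled points cGAMP, lines group means. Endothelial sums of the MMTV-PyMT PBS libraries (818 to 1006 FPKM) lie below those of both other tissues under PBS, and their epithelial sums (838 to 905 FPKM) above.

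Under PBS in the normal fat pad, the members kept a clear order of levels per gene length. Eng was highest at 153 ± 12.04 FPKM (SD, n = 3), followed by Id1 at 100.9 ± 9.31 and Id3 at 71.3 ± 5.597 FPKM. The receptors came next, with Acvrl1 at 48.9 ± 2.25, Tgfbr2 at 41.2 ± 1.77 and Bmpr2 at 34.4 ± 2.07 FPKM, then Smad7 at 18.6 ± 1.66 and Tgfb1 at 15.8 ± 0.467 FPKM. Bmp4 at 8.03 ± 0.4175 and Smad6 at 6.67 ± 0.792 FPKM were lowest. No pair of neighbours in this order overlapped between libraries. In both tumours Eng was still highest and the order below it shifted. Id1 and Id3 overlapped in implanted PBS (42.5 to 60.2 against 51.1 to 58.4 FPKM) but not in MMTV-PyMT PBS (40.0 to 61.8 against 21.8 to 31.4 FPKM). Acvrl1, which led the receptors in the normal fat pad, lay below Tgfbr2 and Bmpr2 in every PBS library of both tumours.

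**Figure D2:**
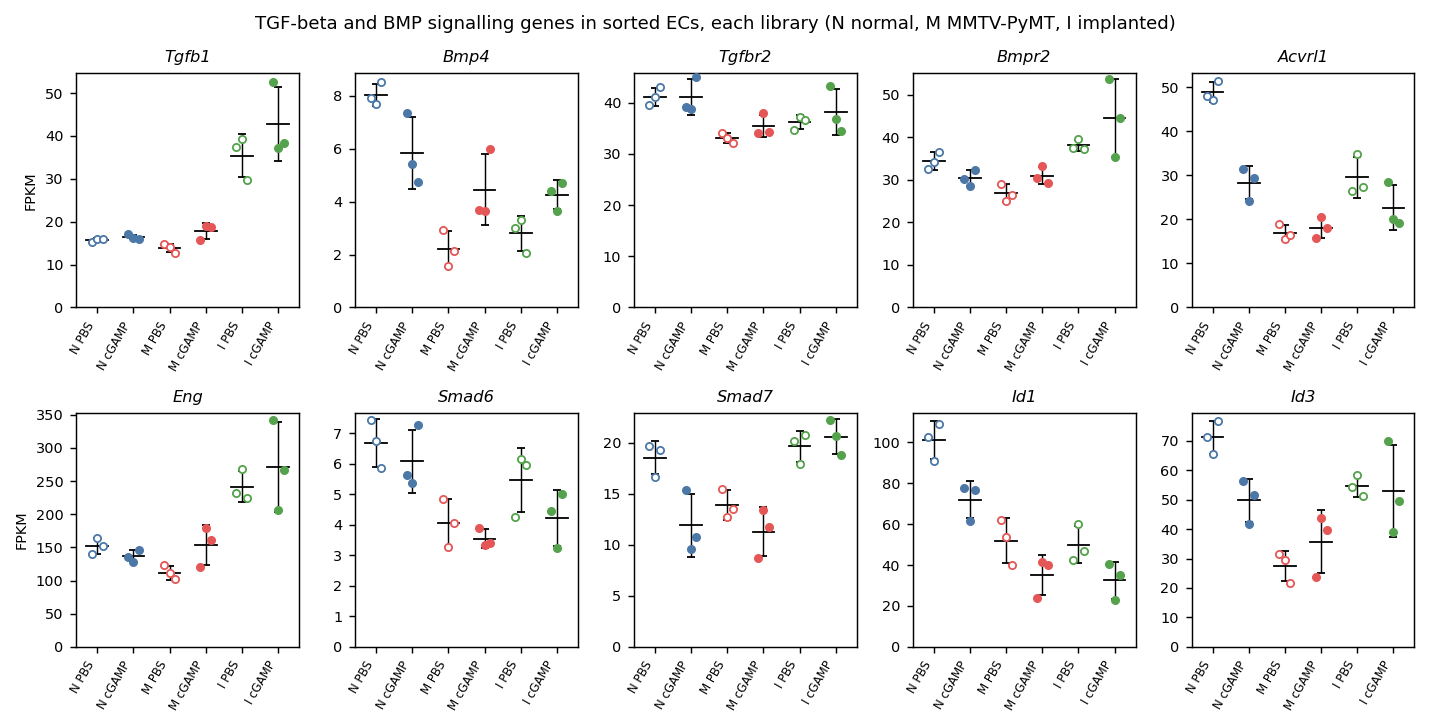
FPKM (y axis, from 0) of the 10 genes in each library, by group (x axis); open points are PBS, filled points cGAMP, bars the group mean with its SD (n = 3). Tgfb1 of the implanted tumours (29.7 FPKM or more) lies above all libraries of the other tissues, and Acvrl1 is highest in normal PBS (47.1 to 51.4 FPKM).

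Promoter sequences from RefSeq (GRCm38.p6, 250 bases before the start) matched 7 of the 10 members, and those of Eng and Bmp4 are shown. The SMAD-binding letters GTCTG, searched on both strands, occur in the windows of Eng, Id3 and Tgfbr2, 3 of 7, beside 42.19% of 32851 promoters of the same length, and a match on the other strand reads CAGAC. The GC-rich form GGCGCC occurs in the window of Bmpr2, 1 of 7 beside 9.59% of all, and the core of the interferon-stimulated response element (both strands) in 0 of 7 beside 2.98% of all. The window of Bmpr2 lies in sequence that GENCODE counts as transcribed. Eng (higher in implanted tumours) at chr2:32646345-32646594, plus strand, holds 2 matches, shown in capitals, while Bmp4 (lower in both tumours) at chr14:46390670-46390919, minus strand, holds none of the motifs searched and stands in lower case. Matches did not follow the direction of change over the members. Tgfb1, also higher in implanted tumours, holds none. Id3 and Tgfbr2 hold matches and had lower levels in MMTV-PyMT than in normal ECs on the values as deposited.
Eng: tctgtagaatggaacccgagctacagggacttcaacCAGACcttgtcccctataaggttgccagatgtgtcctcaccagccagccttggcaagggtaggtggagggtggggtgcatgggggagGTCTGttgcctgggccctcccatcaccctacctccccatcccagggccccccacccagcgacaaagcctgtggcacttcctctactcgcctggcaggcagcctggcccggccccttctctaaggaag
Bmp4: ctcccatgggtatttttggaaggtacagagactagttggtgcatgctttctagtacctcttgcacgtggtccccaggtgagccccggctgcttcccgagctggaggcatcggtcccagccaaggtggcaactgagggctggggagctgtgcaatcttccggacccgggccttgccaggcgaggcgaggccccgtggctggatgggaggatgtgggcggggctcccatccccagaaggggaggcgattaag

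The palindrome GTCTAGAC, which joins both orientations of the SMAD-binding core and was searched for after the sequences were seen, spans the start site of Smad6, with 4 bases on either side. It occurs in 70 of 32851 windows of 300 bases around start sites (0.21%). The stretch shown lies at chr9:64022044-64022073, minus strand, with the palindrome in capitals. The 2 matches in Id3, at chr4:136143643-136143672 and chr4:136143742-136143771, plus strand, lie in sequence that GENCODE counts as transcribed, and only short stretches are shown, with GTCTG or its complement in capitals. A match describes these letters and does not show that a SMAD protein binds there.
Smad6: ccgccaaagtGTCTAGACtggcatatgatg
Id3, first match: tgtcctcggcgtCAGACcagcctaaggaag
Id3, second match: ggacccttggcgGTCTGttttgaataaggg

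To ask how the pathway differs between vessels of normal tissue and of tumours, tissues were compared under PBS with limma on log2(FPKM + 1), with p-values adjusted over all 13983 genes tested, and a gene passed at an adjusted p under 0.05. Changes are given on that log2 scale, which understates changes of low genes such as Bmp4. MMTV-PyMT ECs had lower levels than normal ECs for 9 of the 10 members and a higher level for 0, where 26.6% of all genes tested passed as lower and 29.8% as higher. All 10 had their 3 MMTV-PyMT libraries below the 3 normal ones, against 32.3% of all genes below and 35.4% above. The median change was -0.53 over the members and 0.02 over all genes. Scaling by the endothelial markers moved the median of all genes to 0.59 and split the members. Acvrl1, Bmp4 and Id3 remained lower (-0.75, -0.93 and -0.62, with limma adjusted p of 7.03e-05, 0.000581 and 0.00167), Id1 no longer passed (-0.23, adjusted p = 0.191), and the other 6 turned to the opposite sign. Of those, Tgfb1, Tgfbr2, Eng and Bmpr2 then passed as higher, so that 4 members were higher and 3 lower, against 60.2% and 8.57% of all genes.

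Implanted tumour ECs differed from normal ECs in both directions. Of the members, 2 passed as higher (Tgfb1 and Eng) and 3 as lower (Acvrl1, Bmp4 and Id1), against 25% of all genes higher and 23.6% lower. Their libraries lay above all normal ones for 3 members and below for 5, against 31.4% and 30.2% of all genes. Under scaling by total reads, with or without voom, Tgfbr2 (-0.37 and -0.38), Smad6 (-0.42 and -0.49) and Id3 (-0.56 and -0.57) also passed as lower, which gave 2 higher and 6 lower. The first 5 calls kept their direction and stayed past the threshold in all alternatives run. With endothelial marker scaling Bmpr2 joined the higher members (0.43, adjusted p = 0.010), which gave 3 higher and 3 lower against 28.4% and 9.45% of all genes. Compared directly, implanted tumour ECs had higher levels than MMTV-PyMT ECs for 6 members (Tgfb1, Eng, Acvrl1, Id3, Bmpr2 and Smad7) and lower for 0, against 20.8% and 24.6% of all genes. For 7 members all implanted libraries lay above all MMTV-PyMT libraries, and for 0 below, against 27.5% and 30.9% of all genes. With endothelial marker scaling Tgfb1, Eng, Acvrl1 and Id3 remained higher, Bmpr2 and Smad7 no longer passed (both 0.04), and Id1 passed as lower (-0.49, adjusted p = 0.0132), against 7.87% of all genes higher and 43.4% lower. The 3 tissue comparisons share their PBS libraries. The endothelial, mural, epithelial and fibroblast marker sums given above also differ between these groups, and their part in the results was not tested.

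**Figure D3:**
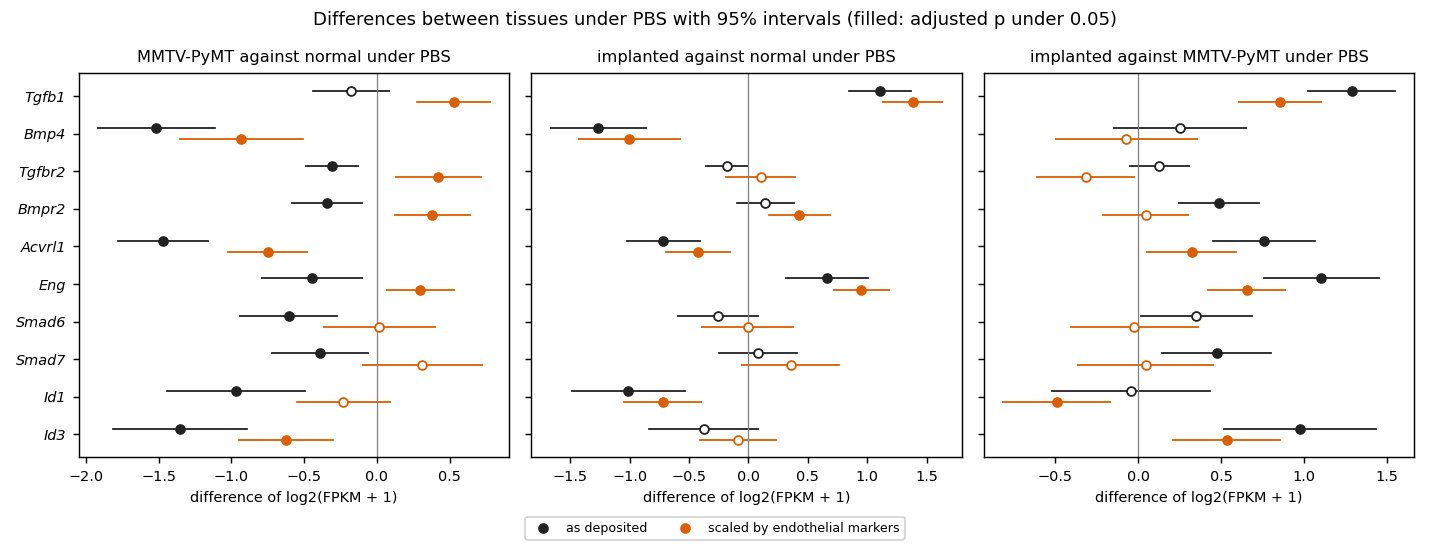
Difference of log2(FPKM + 1) between tissues under PBS (x axis) for the 10 genes (y axis), with 95% intervals; black points use the values as deposited, orange points values scaled by the endothelial markers, and filled points passed at an adjusted p under 0.05. In MMTV-PyMT against normal, Acvrl1, Bmp4 and Id3 are lower under both scalings, while Tgfb1, Tgfbr2, Eng, Bmpr2, Smad6 and Smad7 change sign.

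Among the ligands, Tgfb1 (chr7:25687002-25705077, mm10), which encodes TGF-beta 1, was set apart in the implanted tumours. Its levels were 15.2, 16.1 and 16 FPKM in normal PBS, 14.8, 14.0 and 12.8 FPKM in MMTV-PyMT PBS, and 37.4, 39.2 and 29.7 FPKM in implanted PBS. The lowest implanted library was thus well above the highest of the other tissues. The change was 1.11 ± 0.12 (SE; limma adjusted p = 2.05e-06) against normal and 1.29 ± 0.12 (adjusted p = 1.17e-06) against MMTV-PyMT, and -0.18 ± 0.12 (adjusted p = 0.237; -0.28 and 0.0250 under quantile normalization) for MMTV-PyMT against normal. With endothelial marker scaling Tgfb1 passed as higher in MMTV-PyMT than in normal ECs (0.53, limma adjusted p = 0.000781). Bmp4 (chr14:46383520-46390669), a BMP ligand made by many vascular and stromal cells, showed another pattern. It reached 7.91, 7.69 and 8.50 FPKM in normal PBS but 2.92, 1.56 and 2.14 FPKM in MMTV-PyMT PBS and 3.00, 3.32 and 2.07 FPKM in implanted PBS. Bmp4 was lower in both tumours, by -1.52 ± 0.19 (adjusted p = 6.19e-06) and -1.26 ± 0.19 (adjusted p = 4.48e-05), and the tumours overlapped (0.25 ± 0.19, adjusted p = 0.292). Its levels in tumours rest on few reads, with 38 in the lowest library.

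The receptors did not move as a block. Acvrl1 (chr15:101128522-101145336), the gene of the endothelial type I receptor ALK1, was 48.1, 47.1 and 51.4 FPKM in normal PBS, 18.9, 15.7 and 16.4 FPKM in MMTV-PyMT PBS and 26.4, 34.9 and 27.4 FPKM in implanted PBS. The 3 tissues did not overlap, with normal highest and MMTV-PyMT lowest. Acvrl1 was lower than normal by -1.47 ± 0.15 in MMTV-PyMT (adjusted p = 5.98e-07) and by -0.72 ± 0.15 in implanted tumours (adjusted p = 0.000724), and the tumours differed by 0.76 ± 0.15 (adjusted p = 0.000607). All 3 calls held in all alternatives run. Tgfbr2 (chr9:116084293-116175360), the type II receptor for TGF-beta, stayed within 32.1 to 45.1 FPKM over all 18 libraries. It was 39.5, 41.0 and 43.0 FPKM in normal PBS against 34.1, 33.0 and 32.1 FPKM in MMTV-PyMT PBS (-0.31 ± 0.08, adjusted p = 0.00527), a difference that turned to 0.42 with endothelial marker scaling. Bmpr2 (chr1:59763400-59879014), a type II receptor for BMPs, was 32.5, 34.1 and 36.6 FPKM in normal PBS, 29.1, 25.1 and 26.5 FPKM in MMTV-PyMT PBS and 37.5, 39.5 and 37.1 FPKM in implanted PBS. The changes were small, at -0.34 ± 0.11 for MMTV-PyMT against normal (adjusted p = 0.0161; 0.38 with endothelial marker scaling, and lost without normal PBS 3 or MMTV-PyMT PBS 2) and 0.49 ± 0.11 for implanted against MMTV-PyMT (adjusted p = 0.00246).

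The co-receptor Eng (chr2:32646595-32682669), a marker of proliferating endothelium, separated the tumours. It was 140.5, 165 and 153 FPKM in normal PBS, 123, 111 and 102 FPKM in MMTV-PyMT PBS and 232, 269 and 224 FPKM in implanted PBS. Implanted tumour ECs thus exceeded both other tissues, by 0.66 ± 0.16 over normal (adjusted p = 0.00326) and 1.10 ± 0.16 over MMTV-PyMT (adjusted p = 6.34e-05), in every alternative run. The lower level in MMTV-PyMT than in normal (-0.45 ± 0.16, adjusted p = 0.0288) was lost without normal PBS 2, normal PBS 3, MMTV-PyMT PBS 2 or MMTV-PyMT PBS 3, with an adjusted p of up to 0.102, and turned to 0.30 with endothelial marker scaling. In implanted tumours Eng and its partner receptor Acvrl1 therefore stood on opposite sides of the normal level. Eng overlaps the gene Fpgs on the other strand and a small nucleolar RNA gene, and Acvrl1 overlaps the antisense gene Gm16031. Whether reads were counted by strand was not stated, and reads of such pairs then cannot be told apart.

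Of the inhibitory SMADs, Smad6 (chr9:63953076-64022059), which acts mainly on the BMP branch, was 7.42, 6.74 and 5.84 FPKM in normal PBS, 4.84, 3.28 and 4.05 FPKM in MMTV-PyMT PBS and 4.24, 6.17 and 5.97 FPKM in implanted PBS. Smad7, which acts on both branches, was 19.7, 16.7 and 19.3 FPKM, 15.5, 12.7 and 13.6 FPKM, and 20.2, 17.98 and 20.8 FPKM in the same groups. For both genes normal and implanted libraries overlapped and MMTV-PyMT libraries lay below normal. The change of MMTV-PyMT against normal was -0.61 ± 0.16 for Smad6 (adjusted p = 0.00391) and -0.39 ± 0.15 for Smad7 (adjusted p = 0.04045), and turned to 0.02 and 0.31 with endothelial marker scaling. The Smad7 call was also lost without any 1 of 4 libraries (normal PBS 1 and 3, MMTV-PyMT PBS 2 and 3). Smad7 was higher in implanted than in MMTV-PyMT tumours by 0.47 ± 0.15 (adjusted p = 0.0206), a call lost without implanted PBS 1 or 3 or MMTV-PyMT PBS 2 or 3 and under scaling by total reads.

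The target genes Id1 (chr2:152736251-152737410) and Id3 (chr4:136143497-136145755), which encode inhibitors of differentiation that block basic helix-loop-helix factors, parted in the tumours. Id1 was 103, 90.9 and 109 FPKM in normal PBS, 61.8, 53.5 and 40.0 FPKM in MMTV-PyMT PBS and 42.5, 60.2 and 47.0 FPKM in implanted PBS. Both tumours lay below the normal range and overlapped each other, with changes of -0.97 ± 0.22 (adjusted p = 0.00173) and -1.01 ± 0.22 (adjusted p = 0.00145). Id3 was 71.5, 65.6 and 76.8 FPKM in normal PBS, 31.4, 29.5 and 21.8 FPKM in MMTV-PyMT PBS and 54.3, 58.4 and 51.1 FPKM in implanted PBS. It was lower in MMTV-PyMT than in normal by -1.35 ± 0.22 (adjusted p = 7.33e-05) and higher in implanted than in MMTV-PyMT tumours by 0.98 ± 0.22 (adjusted p = 0.00181), while the implanted tumours did not pass against normal (-0.38 ± 0.22, adjusted p = 0.165). Id3 passed there as lower under quantile normalization (-0.58, adjusted p = 0.0247), total reads (-0.56, adjusted p = 0.0280), voom on total reads (-0.57, adjusted p = 0.0157) and in a fit of these groups alone (adjusted p = 0.00520).

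Of 64 other genes of the pathway, 58 were in the table and 54 were tested. Outside the table were Gdf2, Bmp10, Smad9, Grem1, Ctgf and Cyr61, so the circulating ligands of ALK1 themselves were not analysed here. Against normal ECs, 22 of the 54 were higher and 21 lower in MMTV-PyMT ECs, against 29.8% and 26.6% of all genes, and 17 were higher and 21 lower in implanted tumour ECs, against 25% and 23.6%. The medians were -0.05 and -0.09. The largest change in both was that of Tmem100, an endothelial gene that depends on ALK1 signalling. Tmem100 was 19.99, 16.8 and 17.3 FPKM in normal PBS, 1.535, 1.201 and 1.16 FPKM in MMTV-PyMT PBS and 0.606, 0.767 and 0.802 FPKM in implanted PBS. It was lower by -3.05 ± 0.14 (adjusted p = 5.30e-10) and -3.46 ± 0.14 (adjusted p = 1.47e-10). Id4, a relative of Id1 and Id3, was 7.14 to 7.60 FPKM in normal PBS and 0.384 to 0.961 FPKM in the PBS libraries of both tumours (-2.40 ± 0.17 and -2.35 ± 0.17). Id4 had 16 to 47 reads in the PBS libraries of the tumours. It met the filter of 1 FPKM in 3 libraries only through the normal libraries, so its test rests on the tissue where it is high. The Id genes did not all fall, since Id2 rose in MMTV-PyMT ECs from 15.04, 15.6 and 16.9 FPKM to 61.0, 70.9 and 86.1 FPKM (2.12 ± 0.16, adjusted p = 5.27e-08).

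Other named genes were higher in tumour ECs. Pmepa1, a TGF-beta target that restrains SMAD2 and SMAD3, was 8.34 to 9.48 FPKM in normal PBS and 56.0 to 66.2 FPKM in MMTV-PyMT PBS (2.59 ± 0.13, adjusted p = 7.35e-10). Inhbb, the activin subunit beta B, rose in implanted tumour ECs from 24.7 to 29.2 FPKM to 109 to 146 FPKM (2.22 ± 0.19, adjusted p = 1.02e-07). Between the tumours, Bmp2 (2.45 ± 0.29) was higher and Ltbp2, a matrix protein related to the TGF-beta storage proteins (-1.29 ± 0.20), and Id2 (-1.22 ± 0.16) lower in implanted tumours. Of the 54 genes, 15 were higher and 19 lower in that comparison, against 20.8% and 24.6% of all genes. By role, all 8 genes of ligand storage and activation passed in MMTV-PyMT against normal, 5 higher and 3 lower, while of the 7 other receptors tested 4 were higher and 2 lower, against 29.8% of all genes higher and 26.6% lower. Endothelial marker scaling left the direction and the call of each named gene of the pathway in place in the tissue comparisons.

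**Figure D4:**
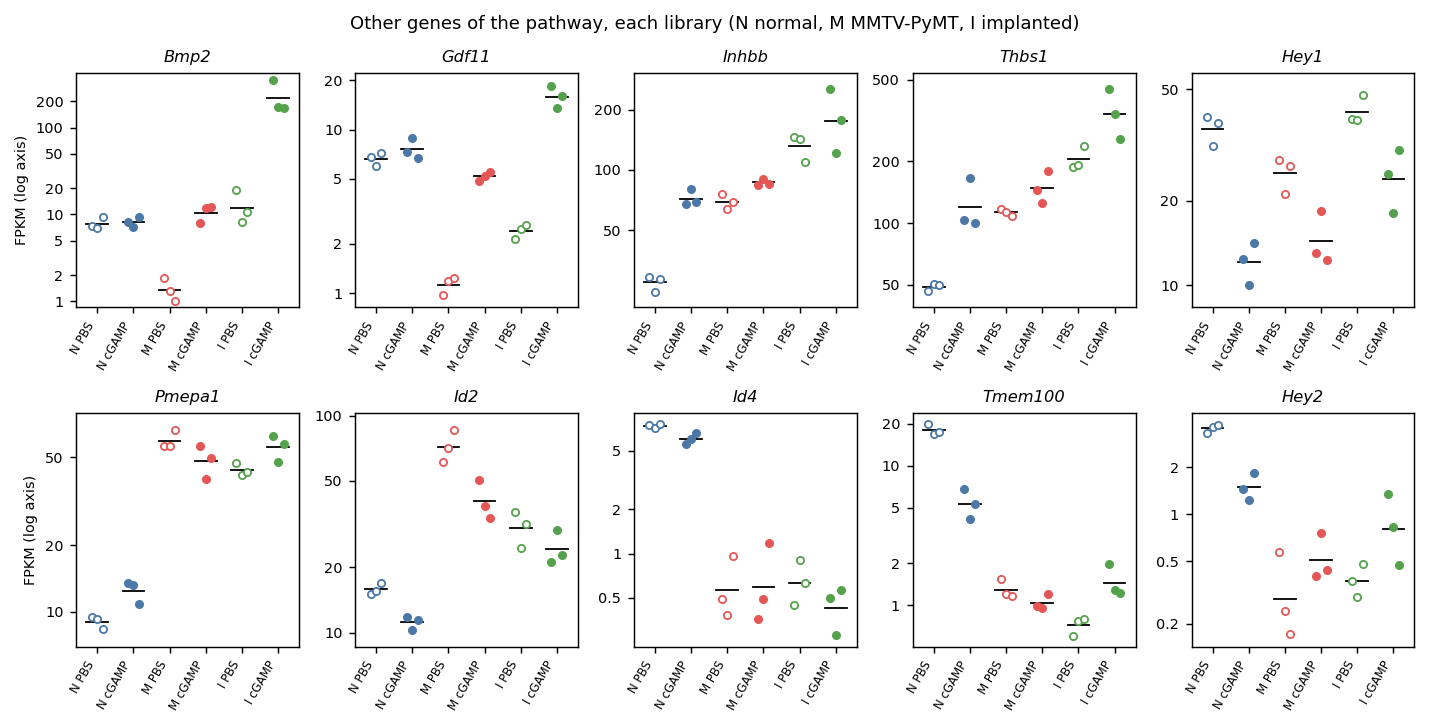
FPKM (y axis, log scale) of 10 named genes of the pathway in each library, by group (x axis); open points are PBS, filled points cGAMP, lines geometric means. Tmem100 and Id4 are lower in every tumour library than in every normal library, and Bmp2 of the implanted cGAMP libraries (169 to 352 FPKM) lies above all other libraries.

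To ask whether STING activation reached the pathway within 3 h, cGAMP was compared with PBS within each tissue. Few members passed. In normal ECs 2 were lower (Acvrl1 and Smad7) and 0 higher, against 18.2% of all genes lower and 13.7% higher. In MMTV-PyMT ECs 1 was higher (Bmp4) and 0 lower, against 7.42% and 4.57% of all genes. In implanted tumour ECs 2 were lower (Acvrl1 and Id1) and 0 higher, against 18.8% and 20.3% of all genes. Libraries of the groups did not overlap for 6 members lower and 1 higher in normal ECs (28% and 20.9% of all genes), for 0 lower and 3 higher in MMTV-PyMT ECs (18.6% and 14.8%), and for 1 lower and 1 higher in implanted tumour ECs (22.8% and 22.4%). Median changes of the members were -0.30, 0.145 and 0.07, beside -0.04, -0.04 and -0.01 over all genes.

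In normal ECs, Acvrl1 fell with cGAMP from 48.1, 47.1 and 51.4 FPKM to 31.5, 24.3 and 29.3 FPKM. All treated libraries lay below all PBS libraries, and the change of -0.77 ± 0.15 (adjusted p = 0.000913) held in all alternatives run, with an adjusted p of at most 0.0063. Smad7 fell from 19.7, 16.7 and 19.3 FPKM to 15.4, 9.60 and 10.8 FPKM, without overlap (-0.62 ± 0.15, adjusted p = 0.00631), a change that no longer passed with endothelial marker scaling (-0.41, adjusted p = 0.169). The Id genes and Bmp4 lay below their PBS range in every treated library but did not pass in the fit of all groups. Id1 was 77.7, 61.5 and 76.7 FPKM with cGAMP (-0.49 ± 0.22, adjusted p = 0.112), Id3 56.2, 41.9 and 51.5 FPKM (-0.51 ± 0.22, adjusted p = 0.08195), and Bmp4 7.34, 5.42 and 4.75 FPKM (-0.42 ± 0.19, adjusted p = 0.102). Id1 passed under voom on total reads (adjusted p = 0.0428) and in a fit of these groups alone (adjusted p = 0.0164). Id3 passed under both (adjusted p = 0.0355 and 0.0146) and under quantile normalization (adjusted p = 0.0289), and Bmp4 without normal cGAMP 1 (adjusted p = 0.0443). The differences of Tgfb1 and Tgfbr2 were 0.06 (95% interval -0.20 to 0.32) and -0.01 (-0.19 to 0.17).

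In MMTV-PyMT ECs, Bmp4 rose with cGAMP from 2.92, 1.56 and 2.14 FPKM to 3.69, 3.65 and 5.99 FPKM (0.76 ± 0.19, adjusted p = 0.0148). No treated library overlapped the PBS libraries, but the call was lost without MMTV-PyMT PBS 2, MMTV-PyMT PBS 3 or MMTV-PyMT cGAMP 3 (0.57 to 0.76, with an adjusted p of up to 0.0839), with endothelial marker scaling (0.66, adjusted p = 0.0615), and in a fit of these groups alone (adjusted p = 0.0511). Tgfb1 was 15.7, 18.9 and 18.7 FPKM with cGAMP, above all 3 PBS libraries, and did not pass (0.34 ± 0.12, adjusted p = 0.0878). Eng was 120, 179 and 161 FPKM (0.43 ± 0.16, adjusted p = 0.0975) and Id1 24.1, 41.3 and 40.2 FPKM (-0.56 ± 0.22, adjusted p = 0.119), and Id1 passed as lower under quantile normalization (-0.67, adjusted p = 0.0479), total reads (-0.70, adjusted p = 0.0289), voom on total reads (-0.72, adjusted p = 0.0186) and endothelial marker scaling (-0.75, adjusted p = 0.00446). Tgfb1 and Eng passed as higher in some alternatives, with a smallest limma adjusted p of 0.0278 and 0.0230. Smad7 did not pass (-0.29 ± 0.15, limma adjusted p = 0.2435), but passed as lower under voom on total reads (-0.46, adjusted p = 0.0391). MMTV-PyMT cGAMP 1 was the lowest treated library for Tgfb1, Tgfbr2, Eng, Acvrl1, Smad7, Id1 and Id3, and it also had the lowest endothelial marker sum of its group (885 against up to 1204 FPKM). Over the group, epithelial sums were 581 to 819 FPKM with cGAMP, below the 838 to 905 FPKM of PBS, and the mean endothelial sum was 1054 against 898 FPKM. Their part in these results was not tested.

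In implanted tumour ECs, Id1 fell from 42.5, 60.2 and 47.0 FPKM to 40.3, 22.7 and 34.9 FPKM, without overlap (-0.62 ± 0.22, adjusted p = 0.0380). Acvrl1 went from 26.4, 34.9 and 27.4 FPKM to 28.6, 20.2 and 19.2 FPKM, with 1 treated library inside the PBS range (-0.38 ± 0.15, adjusted p = 0.0488). Both calls are marginal. That of Id1 was lost without implanted PBS 2, implanted PBS 3 or implanted cGAMP 2, with the replicate number as a block and in a fit of these groups alone (adjusted p = 0.0757). That of Acvrl1 was lost in 16 of 29 alternatives, 12 of them a single library left out. Other alternatives gave larger falls. Over all of them Id1 ranged from -0.94 to -0.39 (limma adjusted p 0.00173 to 0.177). Acvrl1 ranged from -0.71 to -0.26 (limma adjusted p 0.000196 to 0.209). Bmp4 was 4.42, 3.65 and 4.70 FPKM with cGAMP, above the PBS libraries, and missed the threshold (0.48 ± 0.19, adjusted p = 0.0548). The spread among treated libraries was wide, with Eng at 342, 206 and 266.1 FPKM and Tgfb1 at 52.6, 37.2 and 38.4 FPKM. Endothelial marker sums of these libraries were 1979, 1205 and 1449 FPKM in the same order. Implanted cGAMP 2, the lowest library for Id1, had the highest leukocyte (212 FPKM), fibroblast (609 FPKM) and epithelial (533 FPKM) sums of its group, and the mean fibroblast sum was 452 FPKM with cGAMP and 248 FPKM with PBS. The part of these sums in the results was not tested. Scaling by total reads moved the median of all genes in this comparison from -0.01 to -0.25 and turned Tgfb1, Tgfbr2, Eng, Bmpr2 and Smad7 from positive to negative, with Tgfbr2 (-0.24, adjusted p = 0.0123) and Smad6 (adjusted p = 0.0102) then passing as lower, and under quantile normalization Tgfbr2 and Eng passed as lower (-0.24 and -0.44, adjusted p = 0.0164 and 0.0237).

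**Figure D5:**
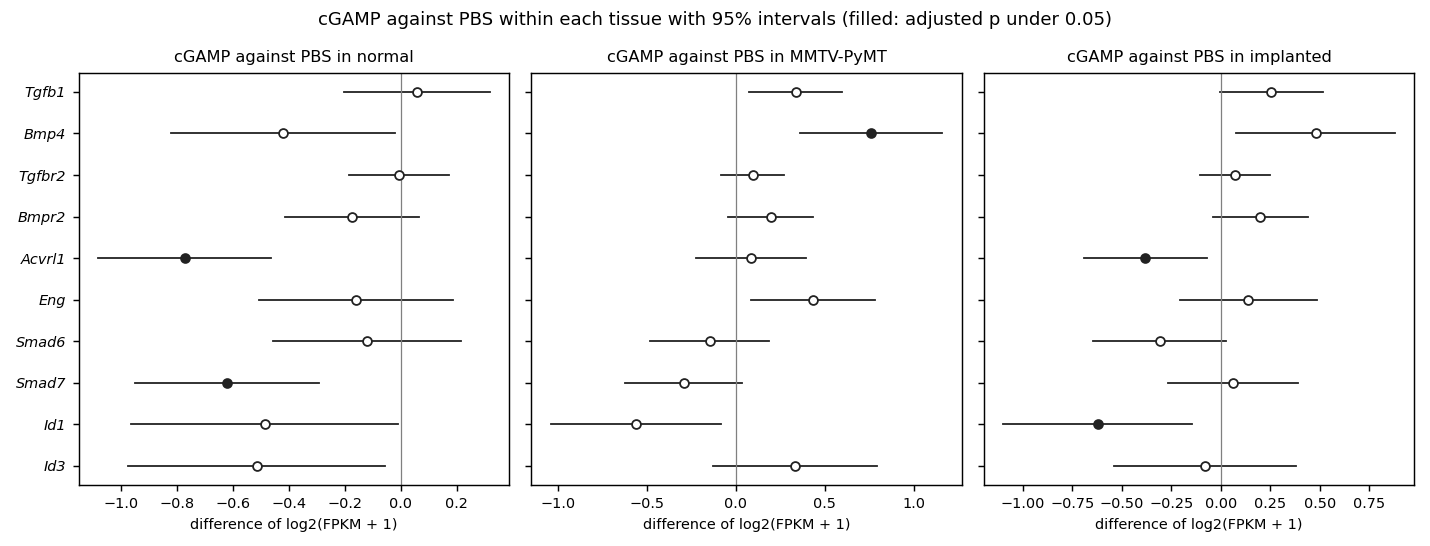
Difference of log2(FPKM + 1) between cGAMP and PBS (x axis) for the 10 genes (y axis) in each tissue, with 95% intervals; filled points passed at an adjusted p under 0.05. Acvrl1 and Smad7 passed as lower in normal ECs, Bmp4 as higher in MMTV-PyMT ECs and Id1 and Acvrl1 as lower in implanted tumour ECs, and in the last tissue scaling by total reads turns Tgfb1, Tgfbr2, Eng, Bmpr2 and Smad7 negative.

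The difference of the cGAMP effect between tissues was tested for each member. Between MMTV-PyMT and normal ECs it passed for Acvrl1 (0.86 ± 0.21, adjusted p = 0.0187) and Bmp4 (1.18 ± 0.27, adjusted p = 0.0138), both with the more positive effect in the tumour, against 5.48% of all genes with a higher and 2.9% with a lower effect. Between implanted and normal ECs it passed for Bmp4 (0.90 ± 0.27, adjusted p = 0.0272) and Smad7 (0.68 ± 0.22, adjusted p = 0.0395), against 12.5% and 6.09% of all genes. Between the tumours it passed by limma for 0 members, against 7.34% and 3.72% of all genes. There 1 member, Acvrl1, had an unadjusted p under 0.05 (-0.47 ± 0.21, limma adjusted p = 0.170). Acvrl1 passed there under quantile normalization (-0.65, adjusted p = 0.0309), total reads (-0.64, adjusted p = 0.0291), voom on total reads (-0.66, adjusted p = 0.0237) and without implanted cGAMP 1 (-0.64, adjusted p = 0.0333), and Eng under quantile normalization (-0.80 in place of -0.30, adjusted p = 0.0200). With endothelial marker scaling none of the 4 differences passed, at an adjusted p of 0.152 for Acvrl1, 0.0966 and 0.190 for Bmp4 and 0.412 for Smad7. The Smad7 difference was also lost when any 1 of 10 libraries was left out, with normal PBS 1 and all 3 implanted PBS libraries among them, and the Bmp4 difference of implanted tumours without any 1 of 5 (normal PBS 3, normal cGAMP 2 and 3, implanted PBS 3 and implanted cGAMP 3). The Acvrl1 difference was lost without normal PBS 3 or MMTV-PyMT cGAMP 2. The 3 tests share libraries, since each tissue enters in a pair of them.

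Larger changes with cGAMP lay elsewhere in the pathway. Bmp2, a BMP ligand, was 7.27, 7.02 and 9.45 FPKM in normal PBS and 8.20, 7.25 and 9.45 FPKM in normal cGAMP. It rose in MMTV-PyMT ECs from 1.84, 1.32 and 1.02 FPKM to 7.97, 11.9 and 12.3 FPKM (2.28 ± 0.29, adjusted p = 3.42e-05) and in implanted tumour ECs from 19.1, 8.20 and 10.7 FPKM to 352, 170.5 and 169 FPKM (4.07 ± 0.29, adjusted p = 1.50e-08). The treated MMTV-PyMT libraries thus reached or passed the level of normal ECs, and the treated implanted libraries lay far above it. The effect in implanted tumours exceeded that in MMTV-PyMT tumours by 1.79 ± 0.40 (adjusted p = 0.00860). This difference did not pass at a pseudocount of 0.1 (1.31, adjusted p = 0.0723), under voom on total reads (1.07, adjusted p = 0.207) or under voom scaled as deposited (1.25, adjusted p = 0.169). Gdf11, a ligand of the activin receptors, followed the same order, from 0.983, 1.18 and 1.24 FPKM to 4.88, 5.17 and 5.49 FPKM in MMTV-PyMT ECs (1.53 ± 0.11) and from 2.13, 2.47 and 2.62 FPKM to 18.4, 13.6 and 16.01 FPKM in implanted tumour ECs (2.31 ± 0.11), with 5.98 to 8.84 FPKM in all 6 normal libraries.

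Bambi, which encodes a decoy receptor that lacks the kinase, rose in both tumours, with PBS libraries of 6.02 to 6.36 FPKM and cGAMP libraries of 13.5 to 16.2 FPKM in MMTV-PyMT, and 8.915 to 11.01 FPKM against 22.7 to 25.2 FPKM in implanted tumours (1.16 ± 0.11 and 1.15 ± 0.11). In normal ECs the leading changes were of other genes. Tmem100 fell to 6.77, 4.175 and 5.31 FPKM (-1.58 ± 0.14, adjusted p = 7.99e-07) and Hey1, a transcription factor of the Notch and ALK1 pathways, from 39.9, 31.4 and 37.8 FPKM to 12.5, 10.02 and 14.1 FPKM (-1.51 ± 0.18, adjusted p = 2.00e-05). Inhbb rose to 67.5 to 80.1 FPKM (1.36 ± 0.19) and Thbs1, thrombospondin 1, which releases TGF-beta from its latent form, from 46.6 to 50.4 FPKM to 99.8 to 165 FPKM (1.27 ± 0.20). Some of these also changed in tumours without overlap. With cGAMP, Hey1 fell from 21.2 to 28.0 FPKM to 12.35 to 18.4 FPKM in MMTV-PyMT ECs. In implanted tumour ECs Hey1 fell from 38.7 to 47.45 FPKM to 18.1 to 30.4 FPKM. Thbs1 rose from 108 to 117 FPKM to 126 to 179 FPKM in MMTV-PyMT ECs. In implanted tumour ECs Thbs1 rose from 187 to 238 FPKM to 258 to 447.5 FPKM. Inhbb rose from 63.9 to 75.5 FPKM to 84.6 to 90.6 FPKM in MMTV-PyMT ECs but overlapped in implanted tumours. Of the 54 genes tested, 9 were higher and 14 lower in normal ECs, 5 and 5 in MMTV-PyMT ECs, and 18 and 10 in implanted tumour ECs. The shares of all genes were 13.7% and 18.2%, 7.42% and 4.57%, and 20.3% and 18.8%. By role in implanted tumour ECs, 5 of 8 genes of ligand storage and activation were higher and 0 lower, while of 7 other receptors 1 was higher and 4 lower, beside the same 20.3% and 18.8% of all genes.

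The genes most like each member over the 18 libraries were listed by the Pearson correlation of log2(FPKM + 1), a description with no test since libraries of a group share tissue and treatment. Among the closest were Sema3f (r = 0.993) and Degs1 (0.993) for Tgfb1, Apbb2 (0.982), Dysf (0.981) and the endothelial marker Emcn (0.981) for Eng, and Jcad (0.974) and the Notch ligand Jag2 (0.970) for Acvrl1. Id3 was closest to Shroom4 (0.965), Mmrn2 (0.960) and Ramp2 (0.952), Id1 to Kmt2e (0.958), and Bmp4 to the flow-induced factor Klf2 (0.932). The other members had r of 0.9 (Smad6 with Emsy) to 0.945 (Bmpr2 with Ptk2) with their nearest gene. None of the nearest 3 genes of any member was another member.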

How the data were processed

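RNA of ECs enriched on CD31 beads and sorted as CD45-negative, CD31-positive live cells was sequenced paired-end from directional libraries. The study names FastQC, STAR 2.7 and HTSeq with mm10. The authors deposited FPKM values of 16248 genes in 18 libraries; how FPKM was computed and whether strand was used is not given in the sources used here. The values listed hold 0 zeros, and 0 columns were left unmapped. From GENCODE exon lengths, 98.81% of FPKM values below 300 reads came out whole within 0.05 reads, for 97.47% of genes, which gave the reads used for depth and voom.

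The members and pathway lists were chosen with earlier results of these data known. Genes at 1 FPKM or more in at least 3 libraries (13983; 2265 left out) were fitted on log2(FPKM + 1) with limma 3.58.1 in R 4.3.3 (6 group means, 12 residual degrees of freedom, variance trend, 2-sided, Benjamini-Hochberg over all genes tested). Named were all 10 members, up to 4 pathway genes with the largest change among those that passed in each comparison, and the 3 genes most correlated with each member; some genes that this rule takes are not reported here. Alternatives were a pseudocount of 0.1, no filter, a mean of at least 5 FPKM, quantile normalization, total reads, voom, a replicate block, fits of the compared groups alone, no variance trend and each library left out. The fit was checked on simulated data. Within groups, the 18 pairs of libraries differed by a chi-square per gene of 4.14 or more, so none was counted as a duplicate.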

Additional observations from a re-analysis of the deposited data

Results flagged for a closer look

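Differences of the cGAMP effect between tissues passed a limma test of the difference itself (adjusted p under 0.05) for these genes, given as differences of log2(FPKM + 1). The tests share libraries, and no explanation was tested. Of the members, Bmp4 differed by 1.18 and Acvrl1 by 0.86 for MMTV-PyMT minus normal, and Bmp4 by 0.90 and Smad7 by 0.68 for implanted minus normal. None of these 4 passed with endothelial marker scaling.

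Of the other pathway genes, Bmp2 differed by 1.79, Itgav, an integrin subunit that takes part in TGF-beta activation, by 0.96 and Klf10, a TGF-beta target, by 0.80 for implanted minus MMTV-PyMT. That of Bmp2 was lost at a pseudocount of 0.1 (1.31, adjusted p = 0.0723), under voom on total reads (1.07, adjusted p = 0.207) and under voom scaled as deposited (1.25, adjusted p = 0.169). For implanted minus normal, Bmp2 differed by 4.01, Gdf11 by 2.15 and Tmem100 by 2.10. For MMTV-PyMT minus normal, Bmp2 differed by 2.22, Tmem100 by 1.42, Gdf11 by 1.37 and Hey2, a relative of Hey1, by 1.08. Tmem100 had 10 to 36 reads per library in the tumours. Hey2 fell with cGAMP in normal ECs from 3.32 to 3.72 FPKM to 1.24 to 1.82 FPKM. It passed the filter on low values only through the normal libraries. In MMTV-PyMT ECs Hey2 was 0.171 to 0.762 FPKM, with 10 to 35 reads per library. Tmem100 and Hey2 were so low in tumours under PBS that falls as large as in normal ECs could not have appeared on this scale.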

How the results depend on the processing

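The limits are those of 3 libraries a group, of FPKM scaled by the authors, and of a sort whose marker sums differ between tissues. Of 2601 values of the members under the alternatives, 2373 kept their direction and side of the threshold, 72 fell short of it, 54 newly passed and 102 changed sign; the cause was not tested. Endothelial marker scaling and voom on reads scaled as deposited were chosen after seeing the data. Scaling by total reads moved the median of all genes to -0.13 in both comparisons of implanted tumours under PBS. Of 36 values of other pathway genes taken by the naming rule, 0 changed sign, and the call of Bmp2 in the cGAMP effect of implanted minus MMTV-PyMT was lost at a pseudocount of 0.1 and under both voom fits, with an adjusted p of up to 0.207. Members with few reads, Bmp4 and Smad6, are the least precise. Bmp4 gave no value at a mean FPKM of at least 5, since it was left out there.

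The number of members that passed, when 1 library was left out, was 6 to 9 for MMTV-PyMT against normal (9 with all libraries), 5 to 6 for implanted against normal (5) and 5 to 7 for implanted against MMTV-PyMT (6). It was 2 to 3 for cGAMP in normal ECs (2), 0 to 3 in MMTV-PyMT ECs (1) and 0 to 3 in implanted tumour ECs (2). For the differences of the cGAMP effect it was 0 to 1 for implanted minus MMTV-PyMT (0), 0 to 2 for implanted minus normal (2) and 1 to 4 for MMTV-PyMT minus normal (2). Counts moved by over 1.5 times in these other cases. Implanted against normal gave 8 under total reads and 8 under voom on total reads, in both 2 higher and 6 lower. In normal ECs cGAMP gave 4 under voom on total reads, 1 under endothelial marker scaling and 4 in a fit of these groups alone. In MMTV-PyMT ECs it gave 0 at a mean FPKM of at least 5, 2 under quantile normalization, 2 under total reads, 3 under voom on total reads and 0 in a fit of these groups alone. In implanted tumour ECs it gave 1 without a filter, 5 under quantile normalization, 4 under total reads, 4 under voom on total reads, 0 in a fit of these groups alone and 1 without a variance trend. Implanted minus MMTV-PyMT gave 2 under quantile normalization, 1 under total reads and 1 under voom on total reads. Implanted minus normal gave 1 at a mean FPKM of at least 5, 1 under quantile normalization, and 0 under total reads, voom on total reads and endothelial marker scaling. MMTV-PyMT minus normal gave 1 at a mean FPKM of at least 5 and 0 under endothelial marker scaling.

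Over 45 pairs of same-numbered libraries the correlation of deviations from the group means ran from -0.345 to 0.294, with 8 over 0.1. Its median was -0.013, beside 0.01 for pairs with different numbers. With 3 libraries a group, these correlations cannot decide whether same-numbered libraries shared an experiment. With the replicate number as a block, the members that passed with cGAMP in implanted tumour ECs went from 2 to 0 (Acvrl1 adjusted p = 0.0645, Id1 adjusted p = 0.0556, limma), and the counts of the other comparisons stayed at their values.

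Under endothelial marker scaling, these changed sign: in cGAMP in normal ECs Tgfbr2 (0.20), Eng (0.0523), Bmpr2 (0.0333) and Smad6 (0.0611), in cGAMP in MMTV-PyMT ECs Tgfbr2 (-0.0881) and Acvrl1 (-0.0921), in cGAMP in implanted tumour ECs Smad7 (-0.0061), in the cGAMP effect of implanted minus MMTV-PyMT Tgfb1 (0.0236), Tgfbr2 (0.0893) and Id1 (0.0571), in the cGAMP effect of implanted minus normal Tgfb1 (-0.0705) and Tgfbr2 (-0.20), in the cGAMP effect of MMTV-PyMT minus normal Tgfb1 (-0.0941), Tgfbr2 (-0.29), Bmpr2 (-0.0179) and Smad7 (-0.0604), in implanted against normal Tgfbr2 (0.10), in MMTV-PyMT against normal Tgfb1 (0.53), Tgfbr2 (0.42), Eng (0.30), Bmpr2 (0.38), Smad6 (0.0176) and Smad7 (0.31) and in implanted against MMTV-PyMT Tgfbr2 (-0.32), Smad6 (-0.0239) and Bmp4 (-0.0731). Under quantile normalization, these changed sign: in cGAMP in MMTV-PyMT ECs Tgfbr2 (-0.0152), in cGAMP in implanted tumour ECs Tgfb1 (-0.0768), Tgfbr2 (-0.24), Eng (-0.44), Bmpr2 (-0.13) and Smad7 (-0.16), in the cGAMP effect of implanted minus MMTV-PyMT Bmpr2 (-0.22), in the cGAMP effect of implanted minus normal Tgfb1 (-0.15), Tgfbr2 (-0.19) and Eng (-0.32) and in implanted against normal Bmpr2 (-0.029) and Smad7 (-0.01). Under scaling by total reads, these changed sign: in cGAMP in MMTV-PyMT ECs Tgfbr2 (-0.0391) and Acvrl1 (-0.0438), in cGAMP in implanted tumour ECs Tgfb1 (-0.0534), Tgfbr2 (-0.24), Eng (-0.18), Bmpr2 (-0.11) and Smad7 (-0.24), in the cGAMP effect of implanted minus MMTV-PyMT Bmpr2 (-0.17), in the cGAMP effect of implanted minus normal Tgfb1 (-0.10), Tgfbr2 (-0.22) and Eng (-0.011), in the cGAMP effect of MMTV-PyMT minus normal Tgfbr2 (-0.0257), in implanted against normal Bmpr2 (-0.0394) and Smad7 (-0.0977) and in implanted against MMTV-PyMT Tgfbr2 (-0.0316). Under voom on reads scaled by total reads, these changed sign: in cGAMP in MMTV-PyMT ECs Tgfbr2 (-0.0408) and Acvrl1 (-0.0501), in cGAMP in implanted tumour ECs Tgfb1 (-0.0551), Tgfbr2 (-0.25), Eng (-0.18), Bmpr2 (-0.12) and Smad7 (-0.25), in the cGAMP effect of implanted minus MMTV-PyMT Bmpr2 (-0.18), in the cGAMP effect of implanted minus normal Tgfb1 (-0.11), Tgfbr2 (-0.23) and Eng (-0.0131), in the cGAMP effect of MMTV-PyMT minus normal Tgfbr2 (-0.0278), in implanted against normal Bmpr2 (-0.0423) and Smad7 (-0.10) and in implanted against MMTV-PyMT Tgfbr2 (-0.0327). Under voom on reads scaled as deposited, these changed sign: in the cGAMP effect of implanted minus MMTV-PyMT Bmpr2 (-0.0002). When 1 library was left out, the sign changed over these ranges: for Acvrl1 in cGAMP in MMTV-PyMT ECs -0.0006 to 0.17, for Bmpr2 in the cGAMP effect of implanted minus MMTV-PyMT -0.14 to 0.15, for Eng in cGAMP in implanted tumour ECs -0.0431 to 0.32, for Id1 in the cGAMP effect of implanted minus MMTV-PyMT -0.30 to 0.17, for Id1 in the cGAMP effect of implanted minus normal -0.30 to 0.0985, for Id1 in the cGAMP effect of MMTV-PyMT minus normal -0.25 to 0.17, for Id1 in implanted against MMTV-PyMT -0.22 to 0.0921, for Id3 in cGAMP in implanted tumour ECs -0.30 to 0.11, for Smad6 in the cGAMP effect of MMTV-PyMT minus normal -0.14 to 0.0924, for Tgfb1 in the cGAMP effect of implanted minus MMTV-PyMT -0.24 to 0.0079, for Tgfbr2 in cGAMP in implanted tumour ECs -0.0189 to 0.14, for Tgfbr2 in cGAMP in normal ECs -0.0753 to 0.0304, for Tgfbr2 in the cGAMP effect of implanted minus MMTV-PyMT -0.11 to 0.044 and for Tgfbr2 in the cGAMP effect of implanted minus normal -0.0116 to 0.15.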
